A study of Rattus norvegicus with 4 samples.

Results

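The Kcn genes encode the pore-forming and auxiliary subunits of potassium channels. They were taken as every rat RefSeq symbol that starts with Kcn and has a non-control probe on the array whose accession maps to it. The RefSeq table holds 97 symbols that start with Kcn, and 91 of them were measured, through 130 probes, among 16526 named genes measured in all. Among those with no usable probe were Kcnd2l1, Kcnk7, Kcnu1 and the pseudogenes Kcnk16-ps1 and Kcnk6-ps1.

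The samples are 4 biological replicates of NR8383, a rat alveolar macrophage line that grows partly attached and partly floating, at 20 passages. Each was kept for 4 h with the particle NRCWE021, a zinc iron oxide (ZnFe2O4), at 17 µg/mL, and its RNA was read on 1 single-colour Agilent array. The study design also has unexposed control cells; their arrays were not analysed here. Every value below is therefore a level in exposed cells of 1 line, no change with exposure can be read from it, and no test between groups was run.

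Potassium channels let potassium leave the cell down its gradient and so set the resting membrane potential. In macrophages this potential steers calcium entry, and potassium efflux is a known trigger of the NLRP3 inflammasome, which makes the channels of interest in cells that take up particles. The family falls into voltage-gated pores, silent subunits that only work inside other channels, calcium- and sodium-activated pores, inward rectifiers, tandem-pore channels that conduct at rest, and auxiliary subunits.

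The promoters of 3 Kcn genes that were well above background on all 4 arrays are shown because they differ widely in CG content. Among the 5 members whose level probe passed on all 4 arrays and whose promoter is in the RefSeq table, they hold the most, the median and the fewest CG dinucleotides. Each runs 5′ to 3′ on the plus strand of GRCr8, from 250 bases before to 50 bases after the gene's start, with CG in capitals. Kcnk13 lies at chr6:124971559-124971858, Kcnn3 at chr2:177234090-177234389 and Kcnv2 at chr1:234412924-234413223.
Kcnk13: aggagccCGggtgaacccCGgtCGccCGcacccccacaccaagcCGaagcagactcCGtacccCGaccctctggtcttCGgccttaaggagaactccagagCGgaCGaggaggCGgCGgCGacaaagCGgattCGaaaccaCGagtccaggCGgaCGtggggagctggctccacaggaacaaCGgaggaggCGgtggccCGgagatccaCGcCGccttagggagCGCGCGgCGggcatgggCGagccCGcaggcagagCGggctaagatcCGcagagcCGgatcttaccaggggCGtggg
Kcnn3: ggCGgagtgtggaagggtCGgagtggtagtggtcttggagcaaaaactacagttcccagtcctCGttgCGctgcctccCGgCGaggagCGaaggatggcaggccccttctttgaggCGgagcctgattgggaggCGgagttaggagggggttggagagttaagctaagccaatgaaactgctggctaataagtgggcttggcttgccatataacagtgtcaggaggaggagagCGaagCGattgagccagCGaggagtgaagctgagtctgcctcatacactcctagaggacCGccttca
Kcnv2: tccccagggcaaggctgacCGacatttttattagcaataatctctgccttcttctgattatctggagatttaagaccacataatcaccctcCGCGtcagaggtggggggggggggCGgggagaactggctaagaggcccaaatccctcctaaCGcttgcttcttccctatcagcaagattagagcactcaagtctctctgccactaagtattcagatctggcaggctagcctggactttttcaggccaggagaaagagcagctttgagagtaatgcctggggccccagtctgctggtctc
These 300-base windows hold 33, 13 and 5 CG dinucleotides in the order shown; CG reads the same on both strands. The table held promoters of 62 of the 91 measured Kcn genes, with a median of 13.5 CG, and each of the 62 had at least 1. Over all 33469 promoters in the table the median was 7 and 94.5% held a CG. The 7 promoters of Kcn genes flagged on replicates 1 and 4 had a median of 13, and the 35 of Kcn genes flagged on replicates 2 and 3 only had a median of 11. The matching medians over all named genes were 21, over 6379 promoters, and 7, over 3630. The windows say nothing about binding or use in these cells.

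The 4 arrays did not have the same background, and every count below is to be read beside that difference. The scanner software marks a spot as well above background, here called flagged, and it did so for 47.0%, 89.5%, 70.5% and 41.6% of gene spots on replicates 1 to 4. Negative control spots averaged 3.52 ± 0.419, 22.7 ± 1.24, 13.4 ± 1.77 and 3.51 ± 0.6 intensity units (SD over 302, 287, 287 and 306 spots). The dimmest spike-in probe read 3.72, 526, 112 and 3.92, so replicates 2 and 3 gave signal to a spike-in that stayed near the negative controls on replicates 1 and 4. The part of this array difference in the results was not tested. On replicates 1 and 4, 8 of 9 measured macrophage markers were flagged, beside 46.0% of all named genes. The other lists had 0 of 7 epithelial, 1 of 5 lymphocyte and 2 of 15 neuron, muscle and heart markers flagged there. On replicate 2 the counts were 9, 6, 5 and 13 in the same order, and on replicate 3 they were 9, 5, 3 and 10. Markers of other cell types were thus mostly flagged on those arrays, as were 91.6% and 75.5% of all named genes.

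Potassium channel genes were mostly low in these macrophages. On replicates 1 to 4, 19, 85, 72 and 12 of the 91 were flagged, which is 20.9%, 93.4%, 79.1% and 13.2%. Over all named genes the shares were 52.3%, 91.6%, 75.5% and 46.3%. The Kcn genes thus lay below the share of all genes on replicates 1 and 4, and within a few percentage points of it on replicates 2 and 3.

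The processed signals showed the same split. The median Kcn gene read 5.25, 545.3, 118 and 4.15 on replicates 1 to 4, beside 21.5, 552.0, 146 and 11.3 for all named genes. On replicates 1 and 4, 44 and 64 of the 91 Kcn genes were no brighter than 3 SD above the mean of the negative control spots, against 3 and 6 on replicates 2 and 3. In a culture read in bulk, few cells with a transcript and little of it in each cell cannot be told apart.

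Sorted by the arrays that flagged them, 11 Kcn genes (12.1%) were flagged on replicates 1 and 4, where the share of all named genes was 46.0%. The same 11 were flagged on all 4 arrays, beside 42.5% of named genes. A further 52 (57.1%) were flagged on replicates 2 and 3 only, beside 27.8% of named genes. Another 8 were flagged on replicate 1 and not on 4 (8.79%, against 6.34% of named genes), and 1 on replicate 4 and not on 1 (1.1%, against 0.327%). The 13 flagged on replicate 2 alone (14.3%, against 12.8%) and the 6 flagged on none (6.59%, against 6.37%) were near the share of all named genes. With replicate 4 left out, 19 Kcn genes passed on the low-background array in place of 11. The share of named genes was then 52.3% in place of 46.0%.

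**Figure D1:**
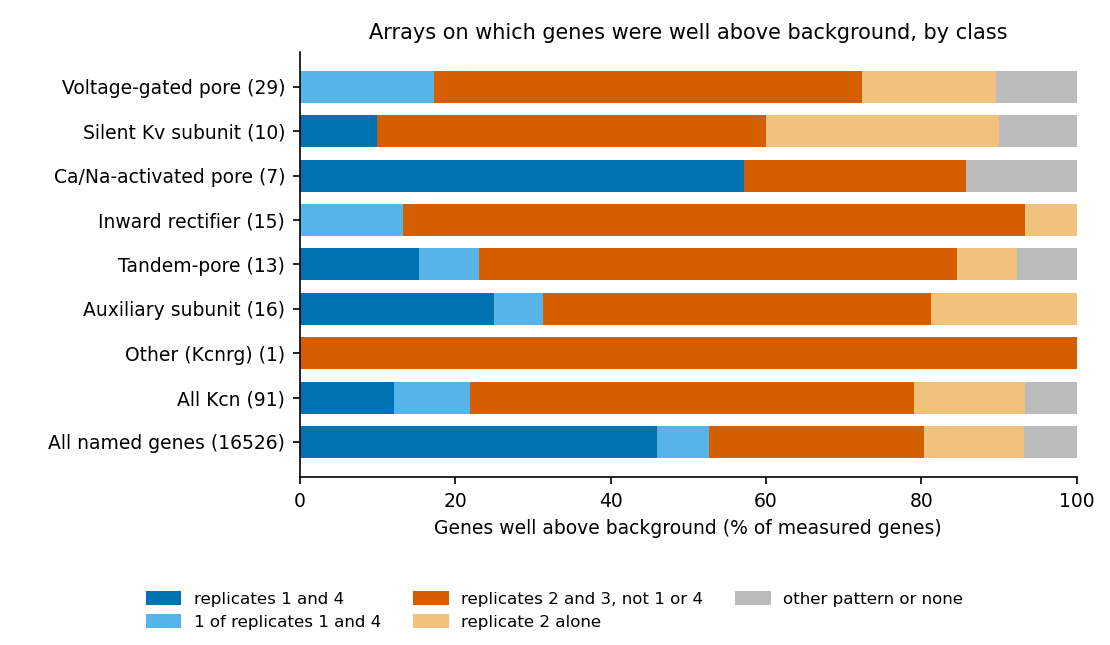
Share of measured genes (%, horizontal axis) by the arrays that flagged them, for each class of potassium channel gene, all Kcn genes and all named genes, with the number of genes in brackets. The calcium- and sodium-activated pores have the longest class bar for replicates 1 and 4 (4 of 7 genes, near the 46.0% of all named genes). The voltage-gated pores and inward rectifiers have none.

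Calcium- and sodium-activated pores were the class most often flagged on replicates 1 and 4, with 4 of 7 measured genes. In so small a class this is near the 46.0% of all named genes. All 4 were calcium-activated, and 1 of them, Kcnma1, passed there through only 1 of its 2 probes. Kcnn4 encodes the intermediate-conductance channel that calcium opens in macrophages and other blood cells. Its level probe, the gene's probe with the highest mean log2 signal, read 124, 1592, 344 and 52.2 on replicates 1 to 4. Its second probe read 50.7, 1052, 238 and 30.6. Both probes were flagged on every array and kept the same order of arrays, with replicate 2 highest and replicate 4 lowest.

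Kcnn3 and Kcnn1 encode small-conductance calcium-activated channels best known from neurons. Kcnn3 read 638, 696, 338 and 242 on replicates 1 to 4. Kcnn1 read 60.7, 722.5, 199 and 19.9. Replicate 1 nearly equalled replicate 2 for Kcnn3, while for Kcnn1 the ratio of replicate 2 to replicate 1 was 11.9. Their sister gene Kcnn2 was flagged on replicates 2 and 3 only, with 3.35, 548, 131 and 6.4.

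Kcnma1 encodes the large-conductance channel gated by calcium and voltage, and its probes disagreed. The level probe read 131, 41.5, 71.6 and 53.1, and was not well above background on replicate 2, the array with the brightest Kcn genes overall. The second probe read 3.38, 1172, 309 and 3.37, at the level of the negative controls on replicates 1 and 4. Each array therefore flagged at least 1 Kcnma1 probe, but no single probe was flagged on all 4. Among the sodium-activated pores, Kcnt1 was flagged on replicates 2 and 3 only and Kcnt2 on no array.

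**Figure D2:**
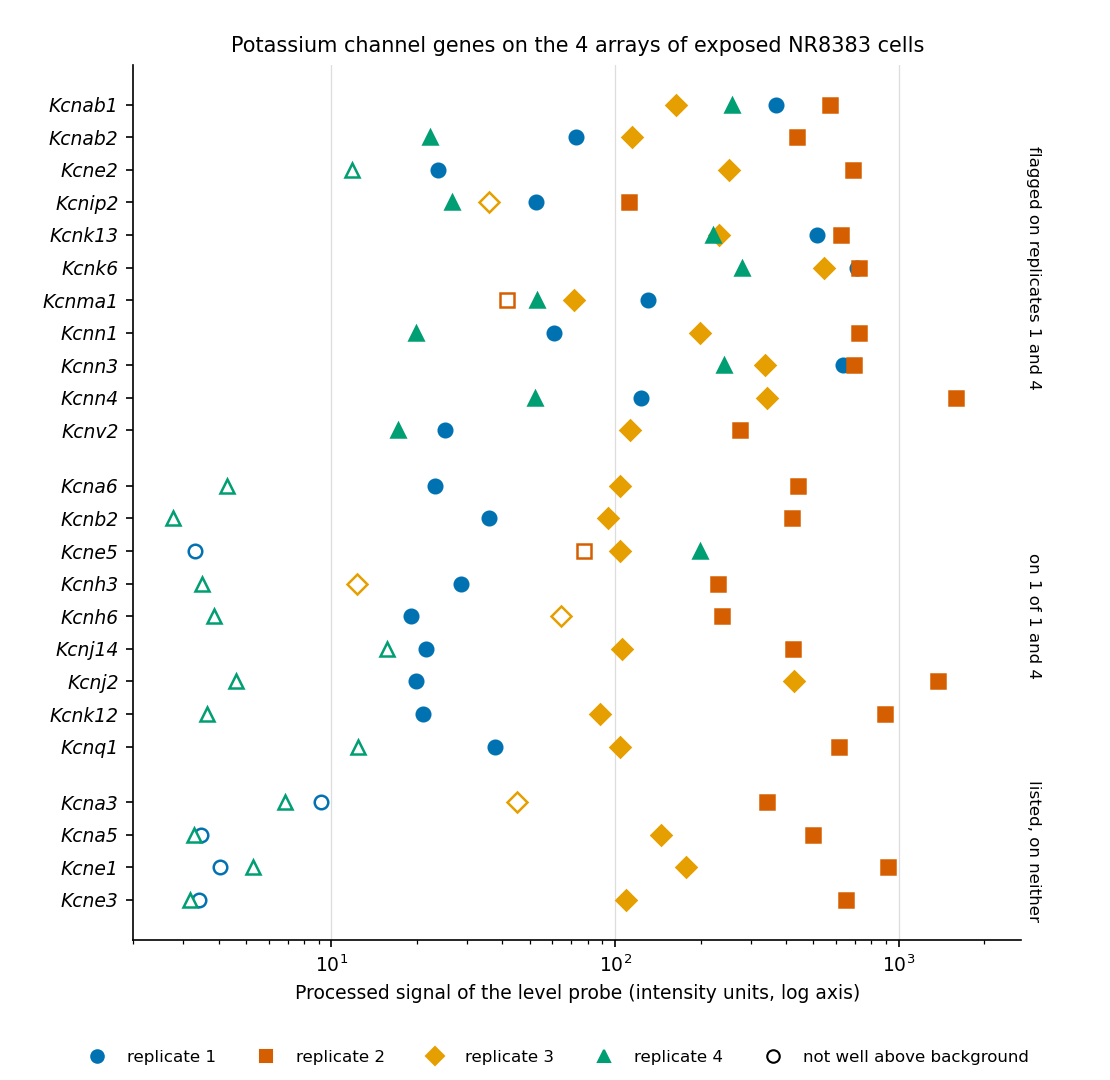
Processed signal of the level probe (intensity units, log axis) on each of the 4 arrays for 24 Kcn genes: those flagged on replicates 1 and 4, those flagged on 1 of these, and the other genes of the macrophage list. Open symbols mark a level probe that was not well above background; for Kcne2, Kcne5, Kcnh3, Kcnh6, Kcnip2 and Kcnma1 another probe of the gene was flagged on such an array (replicate 2 or 3 for Kcne5, Kcnh3 and Kcnh6). Kcnk6, Kcnn3, Kcnk13 and Kcnab1 stay above 150 on every array, while Kcna3, Kcna5, Kcne1 and Kcne3 stay below 10 on replicates 1 and 4.

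Of 13 tandem-pore genes, Kcnk6 and Kcnk13 were flagged on replicates 1 and 4, beside 46.0% of all named genes. Kcnk6 encodes a channel reported in mouse macrophages to carry the potassium efflux that precedes NLRP3 activation. It read 715, 724, 544 and 279.7 and was flagged on all 4 arrays. The second Kcnk6 probe was flagged on every array too, with signals of 88.8, 479, 210.2 and 36.2.

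Kcnk13 encodes a channel known from mouse microglia, where it sets the resting potassium conductance. Its level probe read 513, 623, 232 and 222, all flagged. Its second probe read 20.4, 370.5, 138 and 11.1 and missed the flag on replicate 4. Kcnk12, the closest relative of Kcnk13, read 21.1, 892, 88.1 and 3.63 and was not well above background on replicate 4. Kcnk1, Kcnk10, Kcnk15, Kcnk16, Kcnk2, Kcnk3, Kcnk5 and Kcnk9 were flagged on replicates 2 and 3 only, Kcnk18 on replicate 2 alone and Kcnk4 on none.

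**Figure D3:**
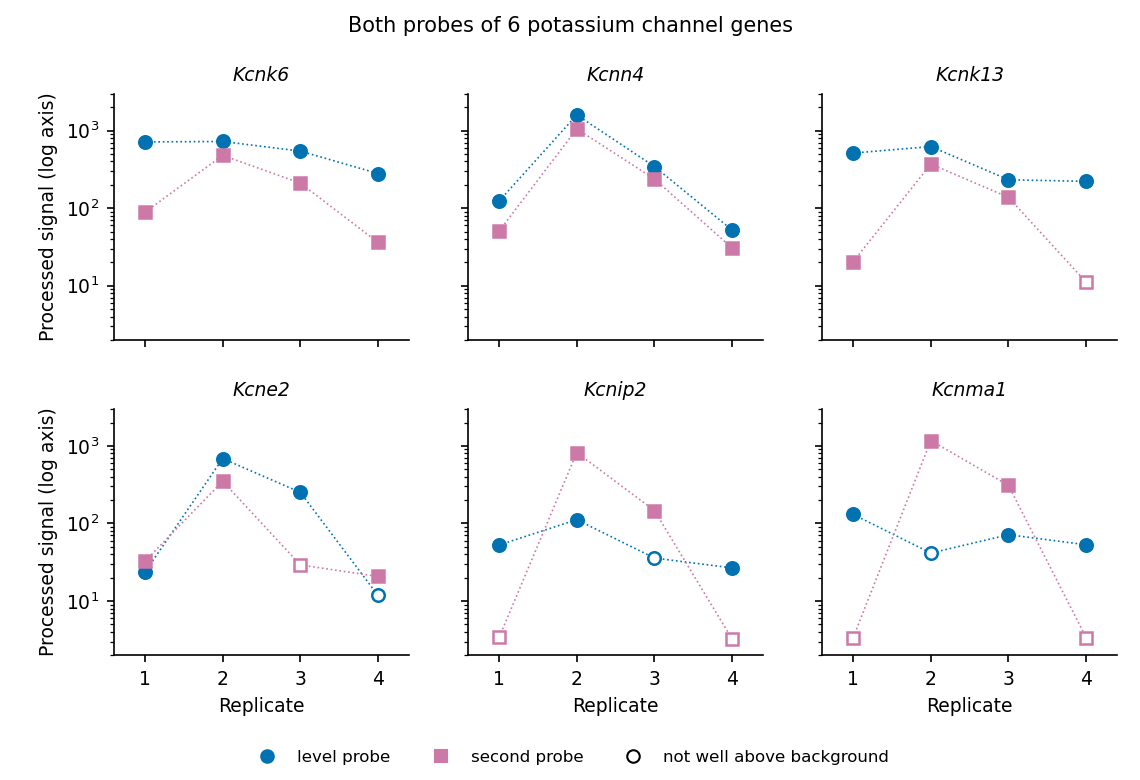
Processed signal (log axis) on replicates 1 to 4 for both probes of 6 Kcn genes, with open symbols where the probe was not well above background. Both probes of Kcnk6 and Kcnn4 are flagged on every array, while the second probes of Kcnip2 and Kcnma1 sit near 3 on replicates 1 and 4 and reach 820.2 and 1172 on replicate 2.

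Among 16 auxiliary subunits, 4 were flagged on replicates 1 and 4, beside 46.0% of all named genes. Kcnab1 and Kcnab2 encode cytoplasmic beta subunits that bind voltage-gated pores of the Kcna type. Kcnab1 read 368, 574, 164 and 257 on replicates 1 to 4. Kcnab2 read 72.7, 437, 115 and 22.3. Both were flagged on every array, Kcnab1 with its lowest signal on replicate 3 and Kcnab2 on replicate 4. The third of these subunits, Kcnab3, read 4.54, 1377, 247 and 15.8 and was flagged on replicates 2 and 3 only.

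Kcne2 encodes a small single-pass subunit that modifies several voltage-gated pores. Its level probe read 23.7, 687, 252 and 11.8 and missed the flag on replicate 4, where its second probe was flagged at 20.7. That second probe read 32.7 on replicate 1, 350.4 on replicate 2 and 29.2 on replicate 3, where it was not well above background. So Kcne2 passed on all 4 arrays only through different probes.

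Kcnip2 encodes a calcium-binding subunit known from heart muscle, where it brings Kcnd channels to the membrane. Its level probe is printed as 10 spots, and the mean read 52.8, 112, 35.8 and 26.7 on replicates 1 to 4. All 10 spots were flagged on replicate 1 and 9 of 9 usable spots on replicate 4, but 5 of 10 on replicate 2 and 0 of 9 on replicate 3. The second probe, a single spot, read 3.39, 820.2, 147 and 3.24. The 2 Kcnip2 probes were thus flagged on opposite pairs of arrays, apart from replicate 2.

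Kcne5, another single-pass subunit, was the single Kcn gene flagged on replicate 4 and not on 1. Its level probe read 3.3, 77.7, 104 and 199, from 1 spot per array. Its second probe read 4.06, 134, 16.4 and 4.36, so the replicate 4 signal was seen at 1 spot and not by the other probe. Kcnab3, Kcne1, Kcne3, Kcne4, Kcnip1, Kcnip3, Kcnip4 and Kcnmb1 were flagged on replicates 2 and 3 only, and Kcnmb2, Kcnmb3 and Kcnmb4 on replicate 2 alone.

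The 29 voltage-gated pores, the largest class, had no gene flagged on replicates 1 and 4, beside 46.0% of all named genes. On replicate 4 their signals ran between 2.77 and 12.4, and none was flagged. Kcna6, Kcnb2, Kcnh3, Kcnh6 and Kcnq1 were flagged on replicate 1 and not on 4. Kcnq1, known for the slow repolarising current of the heart, read 37.7, 615, 104 and 12.4. Kcnb2, a delayed rectifier, read 35.8, 419.6, 94.4 and 2.77.

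The other genes of that kind were close to the detection limit on replicate 1. Kcna6, a delayed rectifier of neurons, read 23.1, 439.9, 104 and 4.28. Kcnh3 read 28.5, 230.2, 12.3 and 3.5, and Kcnh6 19.0, 239, 64.6 and 3.85; both belong to the ether-a-go-go family. The second probes of Kcnb2, Kcnh3 and Kcnh6 were not well above background on replicate 1, with 3.99, 3.48 and 3.58.

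Flagged on replicates 2 and 3 only were 16 voltage-gated pores, a pattern seen in 27.8% of all named genes. Among the 16 were Kcna1, Kcna10, Kcna2, Kcna5, Kcna7, Kcnc1, Kcnc2, Kcnd2, Kcnd3, Kcnh1, Kcnh7, Kcnh8 and Kcnq3. Kcna2, a low-threshold channel of axons, read 9.22, 2061, 312 and 9.14. Kcna3, Kcnd1, Kcnh4, Kcnh5 and Kcnq5 were flagged on replicate 2 alone, and Kcna4, Kcnc4 and Kcnh2 on none.

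Among the 10 silent subunits, Kcnv2, which pairs with voltage-gated pores and is known from photoreceptors, was the single gene flagged on replicates 1 and 4. Of all named genes, 46.0% were flagged there. Kcnv2 read 25.2, 276, 113 and 17.1. On replicate 4 this was the lowest flagged signal among Kcn probes of 1 spot, just above the highest one not flagged, Kcnab3 at 15.8. Kcnf1, Kcng1, Kcng3, Kcng4 and Kcns1 were flagged on replicates 2 and 3 only, Kcng2, Kcns2 and Kcnv1 on replicate 2 alone, and Kcns3 on none.

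Inward rectifiers, which hold the membrane near the potassium equilibrium, had none of 15 genes flagged on replicate 4, beside 46.3% of all named genes. Kcnj2, the main inward rectifier described in macrophages, read 19.9, 1375, 426 and 4.59. Kcnj14 read 21.6, 422, 105 and 15.7. Both were flagged on replicate 1. Kcnj1, Kcnj10, Kcnj11, Kcnj12, Kcnj15, Kcnj16, Kcnj3, Kcnj4, Kcnj5, Kcnj6, Kcnj8 and Kcnj9 were flagged on replicates 2 and 3 only, and Kcnj13 on replicate 2 alone. Kcnrg, a regulator of voltage-gated channel assembly that forms no pore, was likewise flagged on replicates 2 and 3 only.

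The 52 Kcn genes flagged on replicates 2 and 3 only had signals of 3.09 to 14.3 on replicate 1 and 3.05 to 15.8 on replicate 4. On those arrays 29 and 40 of them lay at the level of the negative controls. On replicate 2 the same genes read 146 to 2061, with a median of 670.1, beside a median of 623 for the 11 genes flagged on replicates 1 and 4. On replicate 3 the medians were 179 and 199. Over all named genes the medians were 552.0 on replicate 2 and 146 on replicate 3. Both sets were picked by their flags on these same arrays, so their signals are in part set by that choice. The overlap of the 52 and the 11 genes on replicates 2 and 3 is therefore only a description.

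Of the 6 genes flagged on no array, Kcna4, Kcnc4 and Kcnk4 read at negative-control level on all 4. Kcna4, a transient-current channel, read 3.27, 21.7, 12.3 and 3.07. Kcnc4 read 3.29, 23.2, 12.7 and 3.01, and Kcnk4, a mechanically gated tandem-pore channel, 3.95, 23.9, 16.1 and 4.24. Their probes, unlike most Kcn probes, stayed dim on replicates 2 and 3. Kcnh2, Kcns3 and Kcnt2 were brighter there, at 90.1, 58.1 and 94.5 on replicate 2, without reaching the flag.

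**Figure D4:**
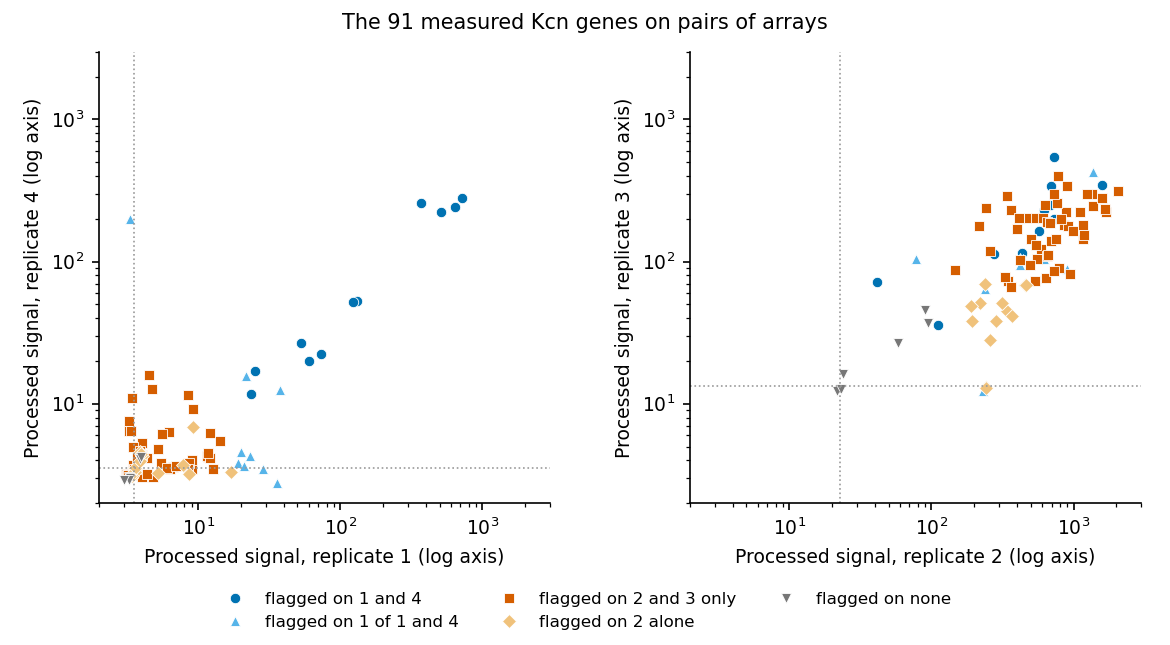
Processed signal of each of the 91 Kcn genes (log axes) on replicate 4 against replicate 1 (left) and on replicate 3 against replicate 2 (right), coloured by the arrays that flagged the gene; dotted lines mark the mean of the negative control spots. On the left the 11 genes flagged on both arrays rise along a line, the dimmest of them next to Kcnj14. On the right most of them lie within the cloud of the other genes. There Kcnk6 is the highest gene on replicate 3 (543.7), and Kcnma1 stands apart (41.5 on replicate 2 and 71.6 on replicate 3).

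Within the 11 genes, the order of signals on replicate 1 was close to that on replicate 4 (Spearman 0.95 over 11 genes) and the order on replicate 2 close to that on replicate 3 (0.93), while replicate 1 against replicate 2 gave 0.33. Over the 52 genes flagged on replicates 2 and 3 only, the values were 0.23 for replicates 1 and 4 and 0.42 for replicates 2 and 3. All points of an array share its background, and genes are not independent replicates. Both sets were picked by their flags on these same arrays. The 52 genes ran only from 3.09 to 14.3 on replicate 1 and from 3.05 to 15.8 on replicate 4. Values of genes flagged on replicates 1 and 4 and of genes flagged on 2 and 3 only are therefore not to be compared. Over the 7598 named genes flagged on replicates 1 and 4, the 3 pairs of arrays gave 0.99, 0.88 and 0.73 in the same order. Over the 4588 named genes flagged on replicates 2 and 3 only, replicates 1 and 4 gave 0.43 and replicates 2 and 3 gave 0.62.

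For the 8 genes whose level probe was flagged on all 4 arrays, a level was set as the log2 signal minus the array's 75th percentile over all probes. Levels of different probes are not comparable with each other. The mean level was 1.68 ± 1.47 for Kcnk6, 1.40 ± 1.48 for Kcnn3, 1.11 ± 1.52 for Kcnk13 and 0.89 ± 1.62 for Kcnab1 (SD, n = 4). It was 0.56 ± 0.29 for Kcnn4, -0.53 ± 0.47 for Kcnn1, -0.80 ± 0.34 for Kcnab2 and -1.45 ± 0.37 for Kcnv2 (SD, n = 4).

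These spreads depended on the scaling. With arrays scaled on the 3 brightest spike-in probes, the SD was 2.25 for Kcnn4 and 1.88 for Kcnab2, but 0.64 for Kcnk6. Over replicates 1 and 4 alone, the SDs of the 8 genes lay between 0.17 (Kcnk13) and 0.52 (Kcnab2). With the percentile taken over the probes detected on all arrays, Kcnn4 had an SD of 1.92 and Kcnk13 one of 0.21, and after quantile normalization Kcnn1 had the smallest, 0.20. No order of steadiness among the 8 genes held under all these scalings. The median SD over the 8 genes was 0.97, beside 1.55 over the 6923 named genes that passed on all 4 arrays. That order held with each replicate left out (0.71 to 1.07, beside 1.21 to 1.73) and with probes of a gene averaged (0.47 beside 1.40). It also held with median pixel intensities (0.74 beside 1.23), with another background correction (0.71 beside 1.11) and with outlier spots kept. Under other settings it turned round. The 8 genes gave 0.97, beside 0.43 for named genes, with the percentile over detected probes, 1.40 beside 0.80 with spike-in scaling, 1.13 beside 0.86 after quantile normalization, and 0.30 beside 0.14 over replicates 1 and 4 alone. These data thus do not show whether the 8 genes varied less or more than named genes in general.

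Probes of 1 gene often differed. Of 33 Kcn genes with several probes, 8 had probes with different flags on replicate 1 or 4, namely Kcnb2, Kcne2, Kcne5, Kcnh3, Kcnh6, Kcnip2, Kcnk13 and Kcnma1, and 19 on replicate 2 or 3. Single-spot flags turned on small steps near the limit. On replicate 1 the lowest flagged Kcn spot was Kcnh6 at 19.0 and the highest not flagged Kcns2 at 17.0. Most Kcn probes, 124 of 130, were printed as 1 spot.

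A list of 11 Kcn genes described in macrophages held 5 of the 11 genes flagged on replicates 1 and 4: Kcnab2, Kcnk13, Kcnk6, Kcnma1 and Kcnn4. This share of the list was near the 46.0% of all named genes. Kcnj2 and Kcnq1 were flagged on replicate 1 and not on 4. Kcna3, the voltage-gated pore well known from macrophages and T cells, read 9.15, 342, 45.1 and 6.85 and was flagged on replicate 2 alone. Its partner Kcna5 read 3.47, 499, 144.5 and 3.27. Kcne1 read 4.05, 919, 178 and 5.29, and Kcne3, also a single-pass subunit, 3.42, 649.8, 109 and 3.16. These last 3 genes were at negative-control level on replicates 1 and 4.

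Genes that work with the channels were set beside them from lists of partners, potassium transporters and inflammasome-linked genes. Of 14 measured channel partners, 6 were flagged on replicates 1 and 4, among them Akap9, Calm2, Calm3 and Lrrc38, a share near the 46.0% of all named genes. Abcc8 and Abcc9, the sulfonylurea receptors of Kcnj11 and Kcnj8 channels, were flagged on replicates 2 and 3 only. Abcc8 read 9.45, 322, 56.9 and 5.47 and Abcc9 read 3.51, 349, 90.2 and 3.49. On replicate 3 the level probe of Abcc8 was not well above background, and its other probe gave the flag. Of the Kcnd partners, Dpp6 read 3.39, 804, 107 and 3.2, and Dpp10 read 3.39, 139, 40.6 and 2.98.

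Potassium transporters were flagged on replicates 1 and 4 in 7 of 14 cases, also near that 46.0%. Among the 7 were Atp1b3, a beta subunit of the sodium pump, the potassium-chloride cotransporter genes Slc12a4 and Slc12a7, and Tmem175, which encodes a potassium channel of lysosomes. Atp1b1, another beta subunit, read 3.96, 464, 67.0 and 3.55 and was flagged on replicates 2 and 3 only.

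Of 17 measured genes of ion flux and the inflammasome, 13 were flagged on replicates 1 and 4, beside 46.0% of all named genes. Nlrp3, the sensor that responds to potassium efflux, read 207, 534, 270.1 and 124. Nek7, which binds Nlrp3, read 33.8, 244, 196 and 29.8. P2rx4, an ATP-gated cation channel, read 76.8, 656, 129 and 39.5. All 3 were flagged on every array.

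The ATP receptor P2rx7 read 3.41, 757, 203 and 4.33, and the pannexin channel gene Panx1 read 4.93, 569.9, 121 and 3.71. Both were flagged on replicates 2 and 3 only, like most Kcn genes. Lrrc8a, the obligatory subunit of the volume-regulated anion channel, read 42.2, 191, 43.4 and 21.3 and missed the flag on replicate 3.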

How the data were processed

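Total RNA of the 4 exposed replicates was labelled with Cy3 and hybridised to single-colour Agilent arrays, per the labels' protocols. Scanner intensity values were made with Agilent Feature Extraction 11.0.1.1, per the submitters' processing notes. The deposited intensity used here is the background-corrected processed signal per spot. A second deposited table of intensity values equalled the median pixel intensity on all 62976 spots of each array and served as an alternative. No total count exists for arrays; the 4 arrays limit the precision.

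Control spots and spots with outlier flags (832 to 1109 gene spots per array) were left out. Probes were named through accessions in a RefSeq gene table (GRCr8). A probe was flagged where at least 0.5 of its spots were well above background, and a gene where any of its probes was. The level probe of a gene was that with the highest mean log2 signal over the 4 arrays. Levels were log2 values relative to the 75th percentile. Python 3.11.15, pandas 2.3.3, numpy 2.4.6, R 4.3.3 and limma 3.58.1 were used, and the steps were tested on simulated data. With 1 group, no test between groups was run. Alternatives covered the detection rule, scaling, background correction, probe choice and leaving out each replicate. The genes named are all those flagged on replicates 1 and 4, the macrophage list, and the first 4 measured genes of each other list with P2rx7, Panx1, Nek7 and Nlrp3. Also named are the genes flagged on replicates 2 and 3 only, those whose probes disagree, and those nearest the detection limit. The genes flagged singly or on no array, and the flagged members of each list, were named after their values were seen. Some genes of these lists are not reported here. The members and lists were chosen with earlier results of these data known.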

Additional observations from a re-analysis of the deposited data

Results flagged for a closer look

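In the 24 Kcn genes with values plotted by sample, the highest or lowest of the 4 levels was set against the gap to its nearest neighbour. Kcnab2 stood apart on replicate 1, with a log2 level of -0.29, where the other arrays gave -0.96, -0.94 and -1.02. Before scaling, its signals were 72.7, 437, 115 and 22.3, with replicate 1 neither highest nor lowest. Kcnb2 stood apart on replicate 4, with a log2 level of -4.03 beside -1.31, -1.02 and -1.22, and its probe was not well above background there. For 4 independent normal values, chance alone gives such a gap in about 1 of 20 sets, and 24 genes were looked at. That rate does not carry over here, because most of the 24 were picked by their flags on replicates 1 and 4. Kcnb2 was among them through its flag on replicate 1, having missed the flag on replicate 4. The arrays also differed in background.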

How the results depend on the processing

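Counts of detected Kcn genes depended on the detection rule. The count on replicates 1 and 4 was 34 with the scanner's looser flag for positive and significant signal, 21 with a limit of 3 SD over the negative control spots, and 7 when all probes of a gene had to pass, in place of 11; the shares of all named genes were 61.3%, 56.9% and 40.5%. The counts on all 4 arrays were the same 34, 21 and 7, beside 60.1%, 55.7% and 36.5% of named genes, and 3, beside 19.0%, with a limit of 3 SD over the dimmest spike-in probe. The count on replicates 2 and 3 only was 22, 31 and 1 with that looser flag, the negative control limit and the spike-in limit, in place of 52, beside 17.1%, 21.2% and 0.793% of named genes. With that looser flag, 9 genes of the macrophage channel list and 2 lymphocyte markers passed on replicates 1 and 4, in place of 5 and 1. Leaving out 1 replicate at a time gave 11 to 19 genes on replicates 1 and 4, beside 46.0% to 52.3% of named genes. On all arrays it gave 11 to 19, beside 42.8% to 46.8%. On replicates 2 and 3 only it gave 52 to 65, beside 28.0% to 40.5%. The 19 came without replicate 4 and the 65 without replicate 3, where the shares of named genes were highest too. The median level of the 8 genes was -2.10 with the percentile taken over probes detected on all arrays and -5.14 with spike-in scaling, in place of 0.73, and 0.52 to 0.93 with a replicate left out. Their median SD was 0.47 with probes of a gene averaged and 0.30 over replicates 1 and 4 alone, in place of 0.97, and 0.71 to 1.07 with a replicate left out. With no filter on dim probes the median SD, then over all 91 measured Kcn genes, was 1.69, beside 1.53 over all named genes. Of 96 single levels recomputed, 22 moved by more than 1 SD. Among them were all 8 genes with the percentile over detected probes and all 8 with spike-in scaling. Those settings subtract another reference from every level. The median level of the named genes that passed on all 4 arrays was -1.49 and -4.53 with them, in place of 1.34. The cause of the other moves was not tested. No paired analysis was possible because there is 1 group. Signals near the negative controls on replicates 1 and 4 set no order among the dim genes.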

Other observations

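A few markers went against their list. The alveolar macrophage receptor gene Marco read 7.63, 1243, 216 and 6.07 on replicates 1 to 4 and was flagged on replicates 2 and 3 only. The heart muscle genes Actc1, at 1146, 1209, 710.4 and 782, and Tnnt2, at 364, 820.0, 208 and 156, were flagged on all 4 arrays. So was Nkg7, a granule gene of cytotoxic lymphocytes, at 320.5, 536, 208 and 213.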
